A study of Arabidopsis thaliana with 96 samples.

Results

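The 18 libraries described here come from young flowers of the Arabidopsis thaliana mutants hdp1-1 and hdp2-1, with or without a transgene cassette named ARE//AGe. They are 18 of the 96 small RNA libraries of the study and were chosen by their titles, which give the mutant, the cassette and the flower class. Each mutant is represented by 3 groups of 3 libraries. The host group carries no named cassette and has flowers of class Wt. The other groups carry ARE//AGe and have flowers of class sMf or of class rMf. The cassette is written ARE//AGE in the hdp1-1 labels and ARE//AGe in the hdp2-1 labels, and both spellings were read as 1 cassette. The labels do not spell out ARE, sMf or rMf, and do not say whether the cassette contains the promoter sequence counted below. All 6 groups share the young flower tissue, the TruSeq library kit and set C of the study. Per the labels' protocols, each library was made from flowers pooled over 5 to 10 lines that shared a phenotype. The sMf and rMf pools of a mutant may therefore hold different transgenic lines. Nothing states that each replicate used its own plants or its own pool, so the p-values below measure the spread between libraries. In the main edgeR tests this spread is 1 estimate shared by all groups of set C and both regions, not that of the groups compared. Set C holds 36 libraries. Beside the 18 described here, it has flowers of Columbia plants, of a kan1 mutant and of the suvh1-2 mutant. These comprise hosts of all 3 backgrounds, suvh1-2 flowers with ARE//AGe, and Columbia and kan1 flowers with a cassette named Ctr//AGe. All of them enter the shared estimate.

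AGAMOUS (AG) encodes the MADS-box transcription factor that specifies stamens and carpels and ends the growth of the floral meristem. Its expression in the flower depends on an enhancer inside its second intron, where LEAFY and WUSCHEL, the meristem regulators that switch AG on, bind. RNA-directed DNA methylation (RdDM) is a silencing pathway of plants: small interfering RNAs lead the methylation machinery to DNA of matching sequence, where cytosines of every context become methylated. HDP1 and HDP2 derive from proteins of a Harbinger transposon. They belong to a histone acetyltransferase complex that helps the DNA demethylase ROS1 to reach its targets, and so act against silencing.

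Small RNA reads were counted over 2 regions on chromosome 4, whose coordinates refer to the TAIR10 build. AGe, the enhancer region, spans chr4:10384147-10387145 (2999 bp). It begins directly after exon 2 in all 4 annotated AG transcripts. In 1 of them it is exactly the second intron, and in the other 3 it also takes in exon 3, a short exon. AGp, called AG promoter or M2 in the file, spans chr4:10380701-10382800 (2100 bp) and ends 56 bp before the annotated start of AG. Since M2 is not explained, it is not certain that every AGp count is of the promoter.

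**Figure D1:**
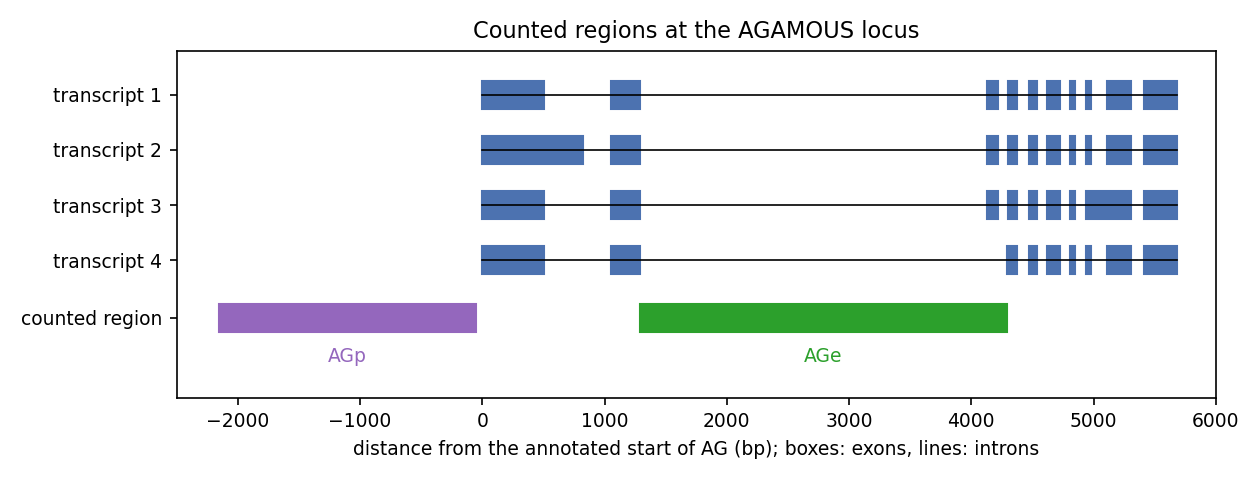
Map of the AGAMOUS locus, with distance from the annotated start of AG in bp on the x axis. Boxes in the upper 4 rows are exons of the annotated transcripts and the lower row shows the counted regions. AGe starts 1291 bp after the start of AG and covers the long second intron, and AGp lies wholly upstream.

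The letters of both regions are shown because every count below is a count of small RNAs that match them. From each region 1 stretch of 200 bases is printed, on the strand of AG, taken from the RefSeq copy of the genome (TAIR10.1). It is the stretch with most kinds of match to 3 motifs, then with most matches. The motifs, searched on both strands, are the LEAFY site CCANTG, the WUSCHEL site TTAATGG and the CCAATCA box. Capitals mark the matches. The AGe stretch is chr4:10386565-10386764 and the AGp stretch is chr4:10380701-10380900.
AGe window: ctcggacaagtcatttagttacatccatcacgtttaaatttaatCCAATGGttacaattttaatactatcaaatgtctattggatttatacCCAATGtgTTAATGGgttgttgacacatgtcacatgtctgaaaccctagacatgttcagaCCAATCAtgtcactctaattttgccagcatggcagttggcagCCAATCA
AGp window: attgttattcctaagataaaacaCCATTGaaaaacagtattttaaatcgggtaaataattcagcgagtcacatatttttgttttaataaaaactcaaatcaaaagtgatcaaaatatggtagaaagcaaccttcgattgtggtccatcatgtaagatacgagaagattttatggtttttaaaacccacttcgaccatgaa

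The AGe stretch holds 3 matches to CCANTG, of which a pair overlap on opposite strands in the first capital run, 1 match to TTAATGG and 2 to CCAATCA. The whole of AGe holds 6, 1 and 2 matches, and the whole of AGp holds 1, 1 and 0. Of 92925 stretches of 200 bases along chromosome 4, 22.7% hold CCANTG, 3.29% TTAATGG and 3.44% CCAATCA. A match is a description of the letters only. The regions also differ in the cytosines open to methylation. AGe has 60 cytosines in CG, 73 in CHG and 723 in CHH context over both strands, where H is any base but G. AGp has 28, 52 and 519. CHH thus makes up 84.5% of AGe cytosines and 86.6% of AGp cytosines, while CG makes up 7.01% and 4.67%. Per kilobase AGe holds 20.0 CG cytosines and AGp 13.3. All 2976 words of 24 bases in AGe and all 2077 in AGp occur once in the reference genome, and no 24-base or 21-base word is found in both regions. A 24-base read that matches one region without mismatch therefore matches no other place. Reads from the cassette and from the plant's own AG gene cannot be told apart in these counts.

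Depth was even. The 18 libraries held between 22580391 and 24017087 mapped reads each, and 89.6% to 94.8% of all reads mapped. A count of 3 reads, the limit that a count of 0 allows, corresponds to 0.125 to 0.133 reads per 1000000 mapped reads (RPM). The lowest counts among the 18 libraries were 336 AGe reads and 209 AGp reads, both in replicate 1 of the hdp2-1 host. That library stands apart from the others of its group, and values without it are given beside the results it moves. Values below are RPM, with group means ± SD over 3 libraries.

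The question of the first comparison is how much small RNA accompanies ARE//AGe in a mutant of HDP1 or HDP2. Small RNA over both AG regions rose with the cassette in both mutants and both flower classes. The rise was 14.7-fold to 67.4-fold, and all 12 cassette libraries lay above all 6 host libraries in both regions. In these whole-flower samples, more cells that make a small RNA and more small RNA per cell cannot be told apart. The hosts were of class Wt and no cassette flowers of that class were analysed here in these mutants, so cassette and flower class cannot be told apart either.

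In hdp1-1 hosts the enhancer region AGe stood at 64.4, 37.2 and 34.6 RPM in replicates 1, 2 and 3. In hdp1-1_ARE//AGe rMf flowers it stood at 790.3, 774 and 734 RPM, and in sMf flowers at 2036, 2374 and 1954. The 3 groups do not overlap, and the host replicates differ among themselves far more in proportion than the cassette replicates do. The coefficient of variation was 36.3% in the host, 3.79% in rMf and 10.5% in sMf flowers. Relative to the host mean of 45.4 ± 16.5 RPM, AGe rose 16.9-fold in rMf flowers, a log2 change of 4.08 (95% interval 3.22 to 4.93). In sMf flowers it rose 46.7-fold, a log2 change of 5.55 (95% interval 4.63 to 6.46).

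The promoter region AGp moved with the enhancer region in hdp1-1. It stood at 40.1, 23.7 and 23.3 RPM in the host, at 482, 432 and 367 in rMf flowers and at 1256, 1445 and 1187 in sMf flowers. Here too the groups are well apart, and replicate 1 of the host is the highest of its group in both regions. From a host mean of 29.0 ± 9.60 RPM, AGp rose 14.7-fold in rMf flowers (log2 change 3.88, 95% interval 3.03 to 4.72) and 44.6-fold in sMf flowers (log2 change 5.48, 95% interval 4.57 to 6.39).

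In hdp2-1 hosts AGe stood at 14.0, 69.7 and 67.3 RPM. In hdp2-1_ARE//AGe rMf flowers it stood at 2263, 1975 and 2233 RPM, and in sMf flowers at 3290.1, 3469 and 3417. The cassette groups are tight and do not overlap, while replicate 1 of the host lies far below the other host libraries, by a factor of 4.98 from lowest to highest. AGe rose 42.9-fold in rMf flowers (log2 change 5.42, 95% interval 4.51 to 6.33) and 67.4-fold in sMf flowers (log2 change 6.08, 95% interval 5.14 to 7.01).

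AGp in hdp2-1 stood at 8.70, 43.7 and 35.8 RPM in the host, at 928, 873 and 887 in rMf flowers and at 1951, 1949 and 1864 in sMf flowers. Replicate 1 of the host was low in both regions alike. The rise was 30.5-fold in rMf flowers (log2 change 4.93, 95% interval 4.04 to 5.82) and 65.3-fold in sMf flowers (log2 change 6.03, 95% interval 5.09 to 6.97). Without replicate 1 of the hdp2-1 host the sMf and rMf rises of AGe were log2 5.63 and 4.98, and those of AGp log2 5.59 and 4.49.

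**Figure D2:**
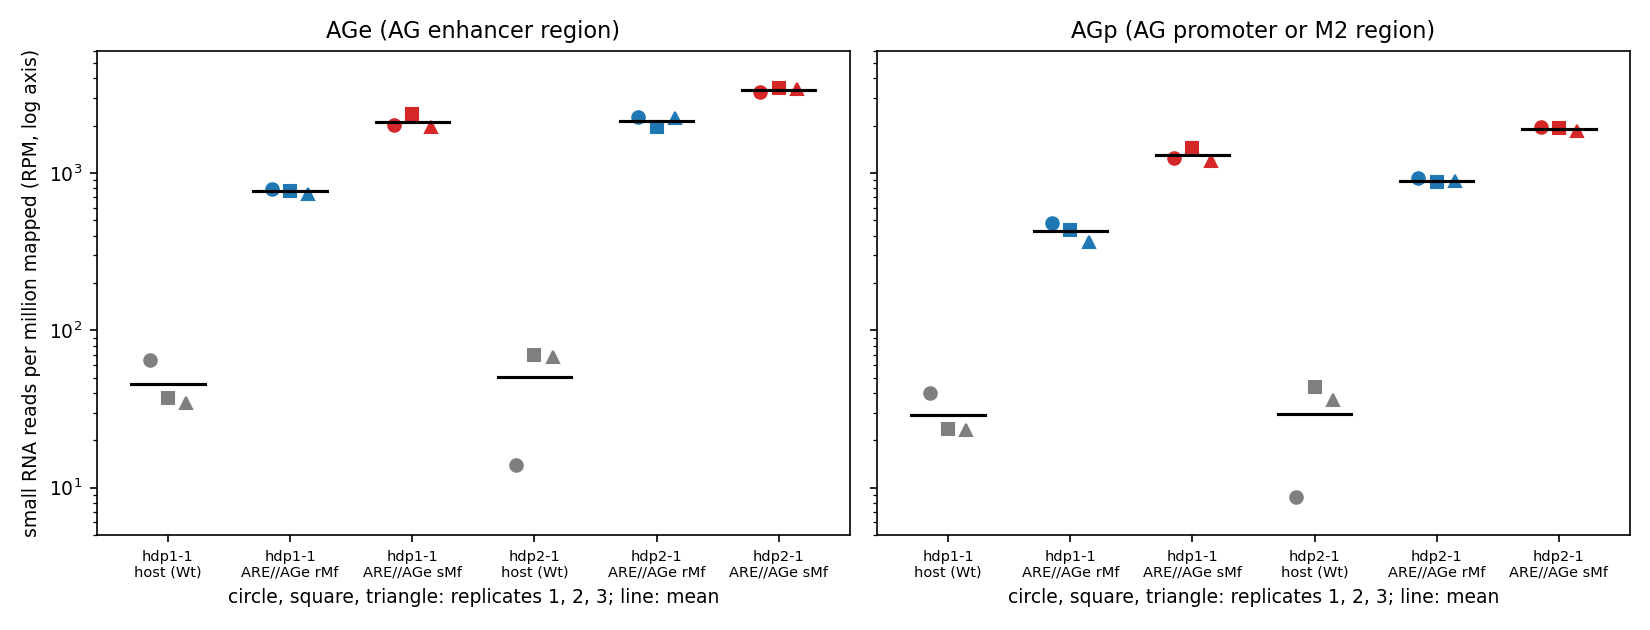
Small RNA level in RPM (log axis) over AGe (left) and AGp (right) in each of the 18 libraries, with replicates as symbols and group means as lines. Host libraries lie between 14.0 and 69.7 RPM for AGe, and cassette libraries between 734 and 3469, with sMf above rMf in both mutants.

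All 8 of these tests passed, with the largest adjusted p at 1.09e-11 (edgeR quasi-likelihood F test, Benjamini-Hochberg over the 32 region tests made here, of which 16, or 50.0%, passed). The background that the hosts bring is small: the host mean amounts to between 1.48% and 6.80% of the mean of a cassette class, taken over both regions.

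The next question is whether the flower classes of a mutant differ in small RNA. In hdp1-1, sMf flowers held 2.77 times the AGe reads and 3.03 times the AGp reads of rMf flowers, with no overlap between the 3 libraries of each class. The log2 changes were 1.47 (95% interval 0.70 to 2.24) and 1.60 (95% interval 0.83 to 2.37), with adjusted p of 0.000868 and 0.00036 by edgeR. In hdp2-1 the difference was smaller for AGe than for AGp. AGp was 2.14 times higher in sMf flowers, a log2 change of 1.10 (95% interval 0.34 to 1.86) with an edgeR adjusted p of 0.0126. AGe was 1.57 times higher, a log2 change of 0.65 (95% interval -0.10 to 1.41) that did not pass (edgeR adjusted p = 0.142), though the libraries of the classes do not overlap.

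The spread that decides this call is shared by all 36 libraries of set C, and 1 library sets much of it. The common dispersion of the fit corresponds to a coefficient of variation of 31.4%, and without replicate 1 of the hdp2-1 host to 19.0%. Leaving out 1 of the other libraries of the groups compared put it between 30.1% and 32.1%. Replicate 1 of the hdp2-1 host is in neither group of this comparison. With it out of the fit the AGe difference in hdp2-1 passed (edgeR adjusted p = 0.00522). For tests without that library among their groups, here and below, this refit was chosen after seeing the data. With only the compared groups in the fit the edgeR adjusted p was 9.95e-06. The edgeR tests count both regions of a library as independent though they often move together, so p-values from few groups can be too small.

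The gain of sMf over rMf flowers was larger in hdp1-1 than in hdp2-1 by 1.76 times for AGe and 1.42 times for AGp. On the log2 scale the difference of the gains was 0.82 (95% interval -0.25 to 1.88) and 0.50 (95% interval -0.56 to 1.57). Neither passed (edgeR adjusted p = 0.189 and 0.398). Without replicate 1 of the hdp2-1 host in the fit, the AGe difference passed (edgeR adjusted p = 0.0116). The upper ends of these intervals correspond to gains 3.68 and 2.96 times as large in hdp1-1.

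A direct comparison of the mutants asks which holds more small RNA in the same flower class. Among rMf flowers hdp1-1 held less of both regions than hdp2-1. AGe in hdp1-1 was 0.355 of the hdp2-1 level (log2 change -1.49, 95% interval -2.26 to -0.72, edgeR adjusted p = 0.000778). AGp was 0.477 of it (log2 change -1.07, 95% interval -1.83 to -0.31, edgeR adjusted p = 0.0146). The libraries of both mutants are well apart, with the highest hdp1-1 rMf library at 790.3 RPM of AGe and the lowest hdp2-1 rMf library at 1975. The AGp difference fell short without replicate 3 of hdp1-1_ARE//AGe rMf (edgeR adjusted p = 0.0606) and per read aligned once (edgeR adjusted p = 0.0560).

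Among sMf flowers hdp1-1 also stood lower, at 0.625 of the hdp2-1 level for AGe and 0.675 for AGp. The libraries did not overlap, but the differences did not pass over the set. The log2 values were -0.68 (95% interval -1.43 to 0.08) and -0.57 (95% interval -1.32 to 0.19), with edgeR adjusted p of 0.131 and 0.190. With only the compared groups in the fit both passed (edgeR adjusted p = 0.000121 and 0.000329), and without replicate 1 of the hdp2-1 host AGe passed (edgeR adjusted p = 0.00404).

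The hosts of the mutants overlapped. Mean AGe was 45.4 ± 16.5 RPM in hdp1-1 and 50.3 ± 31.5 in hdp2-1, and mean AGp was 29.0 ± 9.60 and 29.4 ± 18.4. The log2 differences were -0.15 (95% interval -0.90 to 0.61) and -0.02 (95% interval -0.78 to 0.74), with edgeR adjusted p of 0.740 and 0.961. This comparison turns on single libraries. Without replicate 1 of the hdp2-1 host AGe was lower in hdp1-1 (log2 -0.59, edgeR adjusted p = 0.0192), while the AGp value of -0.45 did not pass (edgeR adjusted p = 0.163). For AGe, hdp1-1 stood higher without replicate 2 of that host (log2 0.16, edgeR adjusted p = 0.719).

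The rise of cassette over host differed between the mutants for AGe in rMf flowers, where it was 16.9-fold in hdp1-1 and 42.9-fold in hdp2-1. The difference on the log2 scale was -1.34 (95% interval -2.42 to -0.27, edgeR adjusted p = 0.0299). It fell short of the threshold in 5 of the 12 fits that left out 1 of its libraries, with log2 values from -1.65 to -0.90 and edgeR adjusted p up to 0.127. The libraries whose removal ended the call were replicate 1 of the hdp1-1 host, replicates 2 and 3 of hdp1-1_ARE//AGe rMf, and replicates 1 and 3 of hdp2-1_ARE//AGe rMf. The value nearest to no difference, -0.90, came without replicate 1 of the hdp2-1 host. The call held there, in a fit whose shared coefficient of variation was 19.0% and not 31.4%. With only the compared groups in the fit the edgeR adjusted p was 0.108. Per read aligned once the log2 difference was -1.04 (edgeR adjusted p = 0.102). For AGp in rMf flowers it was -1.05 (edgeR adjusted p = 0.0963), without replicate 2 of the hdp2-1 host -1.45 (edgeR adjusted p = 0.0214) and without replicate 1 of that host -0.62 (edgeR adjusted p = 0.163). In sMf flowers the mutants differed by -0.53 for AGe and by -0.55 for AGp, neither past the threshold (adjusted p of 0.384 and 0.377 in the edgeR fit). These values rest on single host libraries. Without replicate 1 of the hdp2-1 host they were -0.0838 and -0.114, without replicate 1 of the hdp1-1 host -0.19 and -0.24, and without replicate 2 of the hdp2-1 host -0.84 and -0.95, none past the threshold in edgeR.

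**Figure D3:**
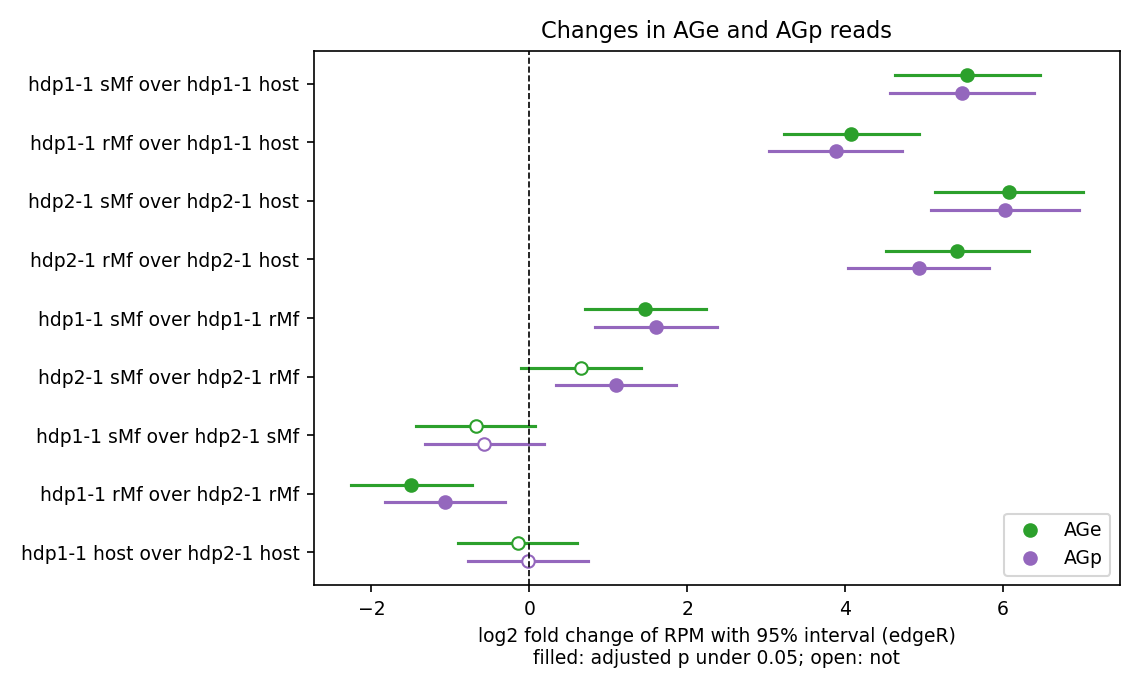
Log2 fold changes of AGe (green) and AGp (violet) reads from the edgeR fit over set C, with 95% intervals. Filled points have an adjusted p under 0.05. All 8 cassette over host changes lie between 3.88 and 6.08, and intervals of the hdp1-1 over hdp2-1 host comparison span 0.

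The balance between the regions was then taken as AGp reads per 100 AGe reads of the same library, which does not depend on library size. Over the 18 libraries it ran from 39.7 to 67.4, although the RPM of AGe ran from 14.0 to 3469. The hdp1-1 host libraries held 62.3, 63.7 and 67.4 AGp reads per 100 AGe reads, the rMf libraries 61.0, 55.8 and 50.0, and the sMf libraries 61.7, 60.9 and 60.8. In hdp2-1 the host libraries held 62.2, 62.7 and 53.2, the rMf libraries 41.0, 44.2 and 39.7, and the sMf libraries 59.3, 56.2 and 54.5. The hdp2-1 rMf flowers are the lowest of the 6 groups and overlap none of them, and the low host library of hdp2-1 has an ordinary balance. Per length the regions were covered more evenly than the read numbers show. AGp held 0.567 to 0.962 times as many reads per kilobase as AGe in the 18 libraries, with group means of 0.921 in hdp1-1 hosts, 0.848 in hdp2-1 hosts and 0.595 in hdp2-1_ARE//AGe rMf flowers.

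AGp per AGe read fell in rMf flowers against the host, to 0.860 of the host value in hdp1-1 and 0.703 in hdp2-1. Over both mutants the ratio was 0.777, with all 6 rMf libraries below the host libraries of their mutant (exact two-sided permutation test within mutants, p = 0.005, the smallest it can give, adjusted p = 0.0233 over 28 tests). In sMf flowers it stood at 0.948 and 0.956 of the host values, a difference that did not pass over both mutants (exact permutation p = 0.125, adjusted p = 0.159). It passed in 1 of the 12 fits that left out 1 library, the fit without replicate 3 of the hdp2-1 host, whose ratio is the lowest among the hosts (log2 difference -0.11, exact permutation adjusted p = 0.04). In the other left-out fits it did not pass, with log2 differences as small as -0.0498 and exact permutation adjusted p up to 0.370. In rMf flowers, then, AGp rose less than AGe did.

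Between the flower classes the ratio was 1.10 times higher in sMf than in rMf flowers of hdp1-1, where the libraries overlap. In hdp2-1 it was 1.36 times higher, with no overlap. Over both mutants the ratio was 1.23, which fell short after adjustment (exact permutation p = 0.015, adjusted p = 0.06). It passed with the host level subtracted from each cassette library (exact permutation, adjusted p = 0.04). Of the 12 fits that left out 1 library it passed in 1, without replicate 1 of hdp1-1_ARE//AGe rMf (exact permutation, adjusted p = 0.02). That library has the highest ratio of its group. The other left-out fits did not pass (exact permutation, adjusted p up to 0.08). Of the mutants, hdp1-1 held more AGp per AGe read than hdp2-1, by 1.08 times in sMf and 1.33 times in rMf flowers. Over the sMf and rMf classes the ratio was 1.20, with no overlap in either class (exact permutation p = 0.005, the smallest it can give, adjusted p = 0.0233). In the hosts it was 1.09 and the libraries overlap. Over all 3 classes, hosts included, the ratio was 1.16 (log2 difference 0.21, exact permutation p = 0.0005, adjusted p = 0.014), and it passed with each of the 18 libraries left out in turn (exact permutation adjusted p from 0.007 to 0.028). Single comparisons of 3 against 3 libraries cannot give an exact p below 0.1, so none of them can pass alone.

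**Figure D4:**
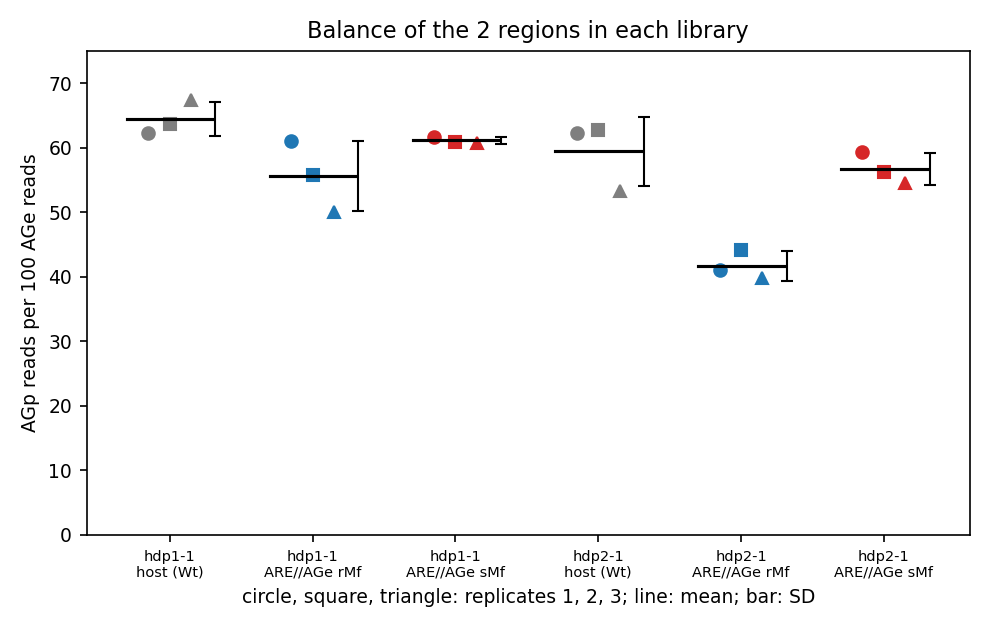
AGp reads per 100 AGe reads in each library, with replicates as symbols, means as lines and SD as bars. The hdp2-1_ARE//AGe rMf libraries lie between 39.7 and 44.2, below all other libraries, which lie at 50.0 or above.

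Reads aligned more than once match sequences present at several places, such as transposon families and multicopy RNA genes. Their share was higher in cassette than in host flowers of both mutants. Of mapped reads, 54.0%, 50.3% and 51.7% aligned more than once in the hdp1-1 host libraries. The rMf libraries of hdp1-1 held 63.6%, 65.5% and 65.8%, and the sMf libraries 64.8%, 60.9% and 64.5%. The cassette libraries of hdp1-1 all lie above its host libraries, and the classes overlap each other. In hdp2-1 the host libraries held 54.0%, 54.9% and 55.8%, the rMf libraries 59.0%, 59.9% and 59.1%, and the sMf libraries 59.6%, 57.7% and 58.6%. The order is the same as in hdp1-1, with a narrower gap.

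Against the host the share rose by 13.0 points in rMf and 11.4 points in sMf flowers of hdp1-1, and by 4.43 and 3.75 points in those of hdp2-1. Over both mutants the rise was 8.72 points for rMf and 7.57 points for sMf flowers (exact permutation p = 0.005 for each, the smallest possible, adjusted p = 0.0233). The AG regions themselves hold at most 0.542% of the mapped reads of any of these libraries, and their 24-base words occur once in the genome. Between sMf and rMf flowers the share differed by -1.61 points in hdp1-1 and -0.68 in hdp2-1, which did not pass over both mutants (exact permutation p = 0.15, adjusted p = 0.183). Single libraries move these small differences: with 1 library left out they ran from -2.30 to -0.35 points in hdp1-1 and from -1.16 to -0.22 in hdp2-1. The smallest values came without replicate 2 of the sMf flowers in each mutant.

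With the cassette, hdp1-1 held the larger share, by 4.72 points in sMf and 5.65 points in rMf flowers (over both classes 5.18 points, exact permutation p = 0.005, adjusted p = 0.0233). Without it, hdp1-1 held the smaller share, a difference of -2.93 points that a test of 3 against 3 libraries could not pass (exact permutation p = 0.1, adjusted p = 0.133). The nearest host libraries, replicate 1 of each mutant, were at 53.9684% and 53.9739%, practically a tie. Over all 3 classes the mutants differed by 2.48 points (exact permutation p = 0.0603, adjusted p = 0.133). Since RPM divides by all mapped reads, this share touches the levels given above. Per read aligned once, the AGe difference of sMf over rMf was log2 1.40 in hdp1-1 and 0.63 in hdp2-1, and the AGe difference between the mutants in rMf flowers was log2 -1.28 (edgeR adjusted p = 0.00346).

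**Figure D5:**
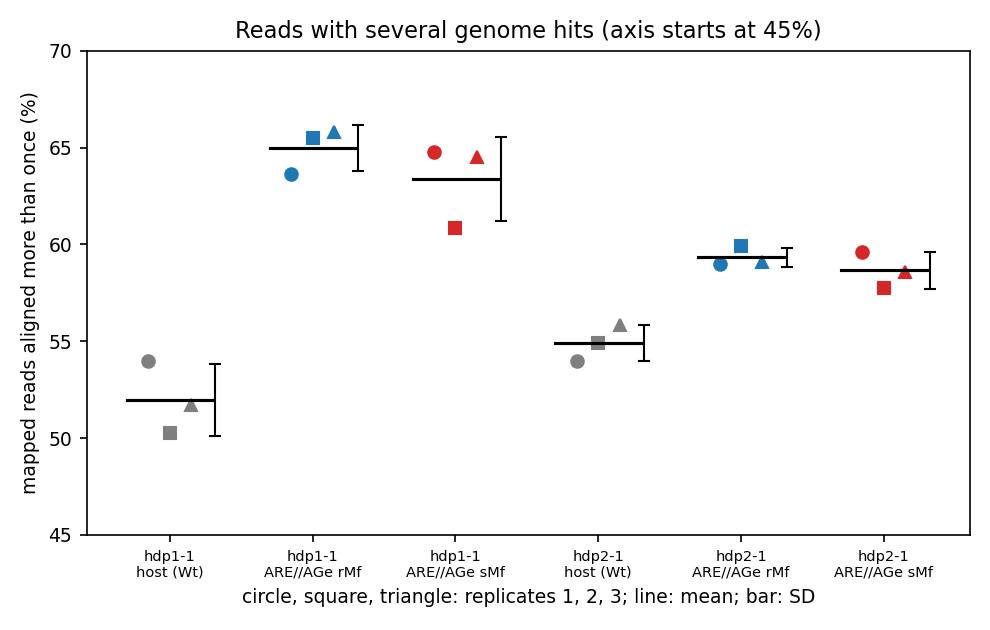
Percent of mapped reads that aligned more than once in each library, with replicates as symbols, means as lines and SD as bars (axis from 45%). Host libraries lie between 50.3% and 55.8% and cassette libraries between 57.7% and 65.8%, with the widest gap in hdp1-1.

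For scale, the cassette flowers were set against cassette groups of other backgrounds in the same set and flower class. SUVH1 is a reader of methylated DNA that promotes transcription, and the suvh1-2 mutant with ARE//AGe had sMf flowers. Its libraries held 2399, 3413 and 3254 RPM of AGe, a range that takes in none of the hdp1-1 sMf libraries and 1 of the hdp2-1 sMf libraries. Neither mutant differed from it past the threshold in either region. The log2 difference was -0.51 for AGe (95% interval -1.26 to 0.24) and -0.49 for AGp in hdp1-1, and 0.17 (95% interval -0.59 to 0.92) and 0.08 in hdp2-1, with edgeR adjusted p from 0.240 to 0.866. For hdp1-1 the AGe difference passed without replicate 1 of the hdp2-1 host in the fit (edgeR adjusted p = 0.0237), and both regions passed with only the compared groups in it (edgeR adjusted p = 0.0329 and 0.0370). These are levels, not rises over a host. The suvh1-2 host held a mean of 211.7 RPM of AGe and 140.4 of AGp. The hdp1-1 and hdp2-1 hosts held 45.4 and 50.3 RPM of AGe, and 29.0 and 29.4 of AGp. Rises over the host were not compared with suvh1-2.

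Columbia (Col) plants with the cassette Ctr//AGe had rMf flowers in which AGe was high and AGp was not. Their libraries held 1202, 1198 and 1182 RPM of AGe and 2.34, 5.05 and 2.43 RPM of AGp. The hdp1-1_ARE//AGe rMf flowers held 0.642 of that AGe level (log2 -0.64, edgeR adjusted p = 0.1445) and the hdp2-1 ones 1.81 times it (log2 0.85, edgeR adjusted p = 0.0529). Without replicate 1 of the hdp2-1 host in the fit both passed (edgeR adjusted p = 0.00587 and 0.000452). AGp was 130.4-fold higher in hdp1-1 (log2 7.02, 95% interval 6.04 to 8.01) and 273.7-fold higher in hdp2-1 (log2 8.09, 95% interval 7.06 to 9.13). The edgeR adjusted p were 1.00e-17 and 4.33e-19. Host and cassette differ together in this comparison and cannot be told apart.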

How the data were processed

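Small RNA-seq of 18 set C libraries was analysed, within a table of 96. The submitters' processing notes name the TAIR10 build, Bowtie and HTSeq 0.13.5. How reads were trimmed, sized or shared among several hits is not given in the sources used here. The deposited table holds counts (total reads, reads with 1 hit, reads with more, mapped reads, and reads in each region). The authors also deposited RPM and an alignment rate in percent. These equal region reads per 1000000 mapped reads in 96 of 96 libraries, and mapped over total reads within 0.00498 points in these 18. Read length and strand were not used here.

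Counts were tested two-sided with the quasi-likelihood F test of edgeR 4.0.16 under R 4.3.3. The fit had 1 mean per group over all 36 set C libraries, mapped reads as library size, and a common dispersion, as there are only 2 regions. Its tests have 48 degrees of freedom, which count the 2 regions of a library as independent. The regions often move together, so p-values can be too small, most of all with only the compared groups in the fit. Benjamini-Hochberg adjustment ran over 32 tests (threshold 0.05). Fold values divide group means of RPM, while log2 changes come from the model. AGp per AGe read (log2) and the share of reads with more than 1 hit were tested by exact two-sided permutation of libraries within a mutant or flower class, adjusted over 28 tests. Both regions are named throughout, so no selection rule was needed. The tests were tried on simulated data first. The edgeR simulation drew both regions independently with 1 dispersion for all groups, unlike these libraries, so it cannot show the error rate here.

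Members, lists and comparisons were chosen with earlier results of these data known. All 18 library pairs within groups differed beyond sampling noise (smallest chi-square 6920). Counting limits cover counting error only. Alternatives used other library sizes, a filter at 10 reads, DESeq2 1.42.0, limma 3.58.1 on log2(RPM + 1), fewer groups in the fit, a replicate block, and each library left out. Refitting all tests without replicate 1 of the hdp2-1 host was chosen after seeing the data.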

Additional observations from a re-analysis of the deposited data

Results flagged for a closer look

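The rise of AGe over the host in rMf flowers differed between the mutants by -1.34 on the log2 scale, hdp1-1 minus hdp2-1, in a test of the difference itself (edgeR adjusted p = 0.0299). The hdp2-1 host libraries behind it held 14.0, 69.7 and 67.3 RPM of AGe, and the part of these host values in the result was not tested beyond leaving each out. Without the lowest of them, replicate 1, the difference was -0.90 and still passed, in a fit with less dispersion. The call was lost in 5 of the 12 fits that left out 1 library, which was of the hdp1-1 host or of the rMf flowers of either mutant. It was also lost with only the compared groups in the fit (edgeR adjusted p = 0.108) and per read aligned once (edgeR adjusted p = 0.102).

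The share of reads aligned more than once went opposite ways between the mutants with and without the cassette. It was 4.72 points higher in hdp1-1 than in hdp2-1 among sMf flowers and 5.65 points higher among rMf flowers, but differed by -2.93 points among hosts. The groups do not overlap, but among hosts the nearest libraries, at 53.9684% and 53.9739%, are practically tied, and the host difference did not pass (exact permutation adjusted p = 0.133). The difference between these differences was not tested.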

How the results depend on the processing

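The 8 rises of cassette over host passed under every alternative run, with log2 values from 3.74 to 6.43 over the left-out libraries. Other calls changed, and unless stated the cause was not tested. Of the 32 tests, 17 passed with total reads as library size, 14 with reads aligned once, 20 with DESeq2, 18 with limma, 24 with only the compared groups, and 23 without replicate 1 of the hdp2-1 host in the fit, which has less dispersion. Calls gained, as log2 values: AGe of hdp2-1 rMf over Col Ctr//AGe rMf with total reads (0.86), DESeq2 (0.85), limma (0.85), the compared groups only (0.85) and the hdp2-1 host library out (0.85); AGe of hdp2-1 sMf over rMf (0.65), of hdp1-1 over hdp2-1 sMf (-0.68) and of hdp1-1 rMf over Col Ctr//AGe rMf (-0.64) with DESeq2, with the compared groups only and with that library out. With the compared groups only, calls were also gained for AGp of hdp1-1 over hdp2-1 sMf (-0.57), for hdp1-1 sMf over suvh1-2 (AGe -0.51, AGp -0.49), and for the difference of sMf over rMf between mutants (AGe 0.82, AGp 0.50). Those of AGe in the latter 2 comparisons (-0.51 and 0.82) passed with that library out, as did the host comparison (-0.59). Calls were lost with reads aligned once as library size for AGp of hdp1-1 over hdp2-1 rMf (-0.86) and for the AGe difference of rMf over host (-1.04). The latter was also lost with the 18 libraries alone (-1.34, edgeR adjusted p = 0.0594) and the compared groups only (-1.34). Its AGp value passed with limma (-1.29). The host comparison turned to 0.10 (AGe) and 0.21 (AGp) with limma. Subtracting the host mean gave a log2 difference of 0.31 for AGp per AGe read in sMf over rMf flowers, which passed.

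Left-out libraries gave log2 values from -0.59 to 0.16 (AGe) and -0.45 to 0.38 (AGp) for the host comparison, -1.65 to -0.90 (AGe) and -1.45 to -0.62 (AGp) for the difference of rMf over host, -0.84 to -0.0838 (AGe) and -0.95 to -0.114 (AGp) for that of sMf over host, -1.17 to -0.97 for AGp of hdp1-1 over hdp2-1 rMf, and -0.0744 to 0.16 for AGp of hdp2-1 sMf over suvh1-2. For AGp per AGe read they gave 0.26 to 0.33 for sMf minus rMf and -0.11 to -0.0498 for sMf minus host.

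Replicate numbers do not pair the libraries: deviations of same-numbered libraries correlated over 0.1 in 8 of 15 pairs of groups. With a replicate block the AGp host comparison turned to 0.0271. Exact sign-flip tests with the block could not pass at all: the smallest adjusted p they allow is 0.0875 with 6 pairs and 0.0547 with 9. Their lost calls therefore say nothing about stability. The adjusted p was 0.125 for AGp per AGe read in rMf minus host (-0.36) and hdp1-1 minus hdp2-1 (0.26), and for the share of reads aligned more than once in sMf minus host (7.57), rMf minus host (8.72) and hdp1-1 minus hdp2-1 (5.18). It was 0.1094 for AGp per AGe read over all 3 classes (0.21). In these 6 results every pair had the same sign. No call of the edgeR tests changed under the block.

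Each group has 3 pooled libraries, which limits the precision. The lowest region count was 209 reads, and the common dispersion corresponds to a coefficient of variation of 31.4%.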
